A study of Mus musculus with 13 samples.

Results

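The genomic sites at which OCT4 and SMAD3 chromatin immunoprecipitation (ChIP-seq) gave unequal signal in cells under reprogramming were described. Sites were taken from the deposited table of differential binding between OCT4 ChIP and SMAD3 ChIP in doxycycline (dox)-treated cells. All 2007 rows of that table were used, out of 9903 regions that were rebuilt here as the regions tested, namely those found in at least 2 of the 6 replicate peak lists. A site was called OCT4-weighted where the authors' mean OCT4 concentration was above their mean SMAD3 concentration, and SMAD3-weighted where it was below. There were 1349 OCT4-weighted sites, 13.6% of the regions tested, and 658 SMAD3-weighted sites, 6.64% of them. The other 7896 regions were tested and not listed.

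The cells were mouse embryonic fibroblasts (MEFs) of the TNG MKOS line. They carried a dox-inducible cassette of c-Myc, Klf4, Oct4 and Sox2 with an mOrange reporter at the Sp3 locus, a CAG promoter-driven rtTA and a Nanog-GFP reporter that disrupts the targeted Nanog allele. The line was heterozygous at both loci on a mixed background of 129 and CD1, embryos of both sexes were used, and per the study's methods every cell was transgenic. All cells had received a retrovirus expressing Smad3CA, a constitutively active SMAD3. Dox+ cells were given 1 µg/ml dox and were collected on day 3, with 3 replicates of OCT4 ChIP and 3 of SMAD3 ChIP. SMAD3 ChIP from cells with the same cassette and retrovirus but no dox (Dox-, 3 replicates, day 3) was used as the comparison. The labels do not say that replicates came from separate cultures, so the p-values measure the spread between these samples, which may be technical. None of the 13 samples of the series was an OCT4 ChIP from Dox- cells. Both proteins were thus supplied by transgenes, OCT4 from the cassette and active SMAD3 from the retrovirus, and binding by endogenous protein cannot be told apart.

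OCT4 is a POU-family transcription factor that recognises an octamer and, together with SOX2, a joint element in which a SOX half-site lies next to an OCT half-site. It can engage closed chromatin and is known for its place at the distal enhancers of pluripotency genes. SMAD3 is the transcription factor that carries TGF-β and Activin signals into the nucleus. It contacts short CAGAC-type elements with low affinity and is commonly found beside other factors, among them AP-1 in fibroblasts.

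The lists differed widely in length. The OCT4 lists held 1181, 1115 and 102 distinct regions in replicates 1, 2 and 3, the Dox+ SMAD3 lists 420, 23981 and 10374, and the Dox- SMAD3 lists 1656, 18588 and 4038. OCT4 replicate 3 and SMAD3 Dox+ replicate 1 were therefore short, and values are given for each list. Per the study's methods, OCT4 peaks were called at a stricter q cutoff than SMAD3 peaks, so list lengths of the antibodies are not on equal terms. Read depths are not in the files. OCT4 peaks were narrow, with a median of 215 bp in the merged list, and SMAD3 peaks were called as broad ones, with a median of 486 bp.

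Sequences are shown first for the 4 OCT4-weighted sites with the largest OCT4 minus SMAD3 difference among those in at least 2 OCT4 lists. Each window is from the plus strand of GRCm38 (mm10; RefSeq genome), centred on the OCT4 summit. Capitals mark a match to 1 of the 6 motifs searched, here the SMAD half-site CAGAC at Rab3ip, Lims1 and Ube3a. A further CAGAC at Ube3a starts at the last capital and is left in lower case. The window at Dpyd held none of the 6, and no octamer or joint element was matched in these 4 windows.
Dpyd, chr3:119112810-119112910: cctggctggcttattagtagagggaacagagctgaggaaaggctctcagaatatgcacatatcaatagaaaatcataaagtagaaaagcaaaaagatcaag
Rab3ip, chr10:116934733-116934833: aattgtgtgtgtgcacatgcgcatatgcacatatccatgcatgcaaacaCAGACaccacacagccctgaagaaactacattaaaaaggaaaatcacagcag
Lims1, chr10:58358347-58358447: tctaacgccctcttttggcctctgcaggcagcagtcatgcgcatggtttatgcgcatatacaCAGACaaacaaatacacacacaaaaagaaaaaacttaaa
Ube3a, chr7:59277521-59277621: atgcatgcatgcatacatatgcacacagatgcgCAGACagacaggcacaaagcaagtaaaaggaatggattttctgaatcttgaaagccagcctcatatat

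The joint OCT-SOX element was written as CATTGT or CTTTGT, then any base, then ATGCA or ATGCT, and was searched on both strands. Its match is in capitals in the next 4 windows. The first 2 are the OCT4-weighted sites with the largest difference that held it at the summit. The site upstream of Pou5f1, which encodes OCT4 itself, and that at Rif1, which encodes a telomere and replication-timing factor, were chosen after their values were seen, since they belong to a list of pluripotency genes. The window near Pou5f1 also held a CAGAC.
Mut, chr17:41262636-41262736: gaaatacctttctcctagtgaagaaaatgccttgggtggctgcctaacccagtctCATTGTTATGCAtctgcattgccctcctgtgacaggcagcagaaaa
Cop1, chr1:159409593-159409693: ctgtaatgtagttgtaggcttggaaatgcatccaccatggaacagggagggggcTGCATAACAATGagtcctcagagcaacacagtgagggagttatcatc
Pou5f1, chr17:35504011-35504111: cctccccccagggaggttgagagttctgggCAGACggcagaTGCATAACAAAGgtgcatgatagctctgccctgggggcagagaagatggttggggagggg
Rif1, chr2:52072214-52072314: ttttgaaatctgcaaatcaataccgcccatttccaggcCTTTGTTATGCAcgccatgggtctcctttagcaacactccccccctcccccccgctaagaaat

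For comparison, 2 of the 4 SMAD3-weighted sites with the largest SMAD3 minus OCT4 difference are shown, centred on the site. Capitals mark CAGAC on the minus strand at Hist1h3a and a KLF motif at Arl6ip1. The window at Glul reached into the exon at the gene start and is not printed.
Hist1h3a, chr13:23762474-23762574: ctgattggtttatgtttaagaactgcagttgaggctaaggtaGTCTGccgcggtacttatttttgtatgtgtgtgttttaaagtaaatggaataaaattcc
Arl6ip1, chr7:118129676-118129776: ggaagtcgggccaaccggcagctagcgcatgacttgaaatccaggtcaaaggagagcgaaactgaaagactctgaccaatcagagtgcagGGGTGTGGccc

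At OCT4-weighted sites the authors' mean OCT4 concentration, the log2 of the normalised read count, had a median of 4.81 and ranged from 3.16 to 7.15. The SMAD3 concentration at the same sites had a median of 1.97 and ranged from -0.66 to 4.78. The lower end of the OCT4 values was set by the choice of sites. At SMAD3-weighted sites the median SMAD3 concentration was 3.70, with a range of 2.85 to 6.58, and the median OCT4 concentration was 1.66, with a range of 1.12 to 5.2. These values defined the groups and are given as a description. They are means over replicates with no value per replicate.

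The difference was larger in the OCT4 direction. The median OCT4 minus SMAD3 difference was 2.85 at OCT4-weighted sites and -1.93 at SMAD3-weighted sites. A difference of at least 2 on the log2 scale was seen at 1029 OCT4-weighted sites (76.3%) and at 281 SMAD3-weighted sites (42.7%), and one of at least 3 at 600 (44.5%) and 13 (1.98%). The scale has a different lower end for each antibody. OCT4 concentration was at its lowest value, 1.12, at 226 SMAD3-weighted sites (34.3%), while the lowest SMAD3 concentration, -0.66, was reached at 8 OCT4-weighted sites. The differences at those 226 sites are bounded by that lower end, and the 2 directions are not on equal terms.

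**Figure D1:**
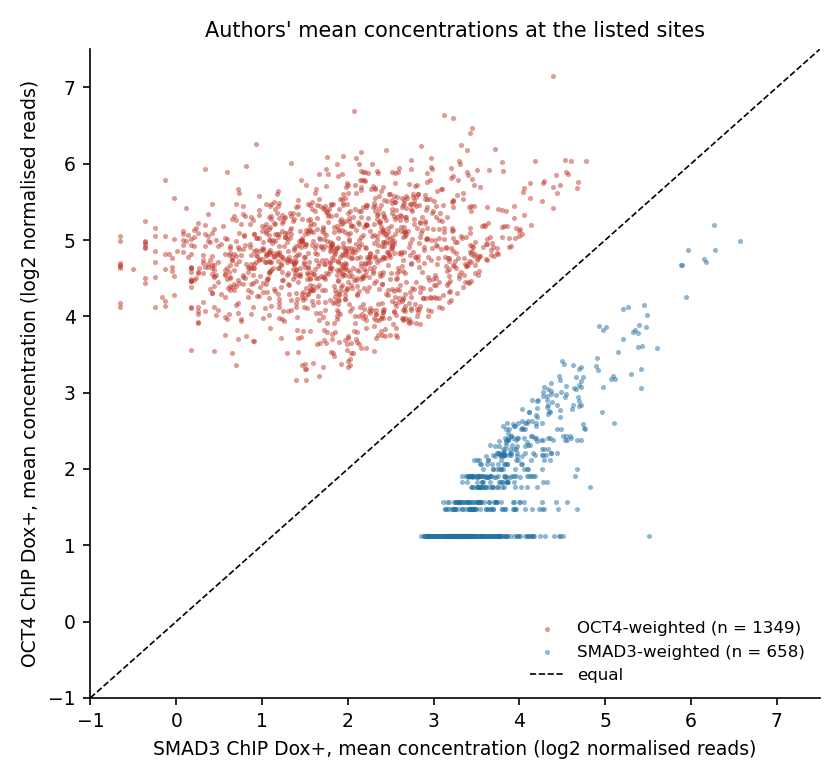
Each point is 1 of the 2007 listed sites, with the authors' mean SMAD3 concentration on the x axis and their mean OCT4 concentration on the y axis, both as log2 normalised reads from Dox+ cells; the dashed line marks equal values. OCT4-weighted sites (red) run from -0.66 to 4.78 in SMAD3, while 226 SMAD3-weighted sites (blue) lie on the lowest OCT4 value of 1.12.

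The replicate lists gave a second view of the same libraries, again as a description. OCT4-weighted sites lay under an OCT4 peak in 58.7%, 55.2% and 6.38% of cases in replicates 1, 2 and 3, and 991 of the 1349 (73.5%) lay under a peak of the merged OCT4 list. Of the 658 SMAD3-weighted sites, 0 lay under an OCT4 peak in any list, which allows a share of up to 0.456%, counting error only. Since a region had to be in at least 2 of the 6 lists, these sites could enter through SMAD3 lists only. Their shares in SMAD3 Dox+ lists 1, 2 and 3 were 7.90%, 100% and 100%, near those of the regions not listed, at 4.15%, 100% and 99.6%. The regions not listed were likewise rare in the OCT4 lists, at 0.127%, 0.228% and 0.038%.

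Many OCT4-weighted sites also lay under a SMAD3 peak. They lay under a SMAD3 Dox+ peak in 1.26%, 86.2% and 34.0% of cases in replicates 1, 2 and 3, and 672 (49.8%) lay under a peak of the merged SMAD3 Dox+ list, against 94.1% of regions not listed. SMAD3 peaks, whose scores are averages over broad regions, had lower scores than OCT4 peaks. A −log10 q below 2 was held by 95.5%, 66.1% and 73.2% of SMAD3 peaks in replicates 1, 2 and 3 and by 0% of OCT4 peaks. The 0% was set by the calling, since the study's methods kept OCT4 peaks at a −log10 q of at least 2. SMAD3 peaks were called at a looser cutoff. By the lists behind them, 864 OCT4-weighted sites (64.0%) were in lists of both antibodies, 174 (12.9%) were in OCT4 lists only, and 311 (23.1%) were in SMAD3 Dox+ lists only although their mean OCT4 concentration was higher. The overlap with SMAD3 rested largely on the longest list, replicate 2, and was raised by the entry rule. A region in only 1 OCT4 list could enter only if it was also in a SMAD3 Dox+ list. OCT4 list 1 or 2 with SMAD3 Dox+ list 2 alone lay behind 407 sites (30.2%). Among all peaks of OCT4 lists 1, 2 and 3, 53.9%, 53.2% and 70.6% lay under a peak of SMAD3 Dox+ list 2. For SMAD3 Dox+ list 3 these shares were 9.03%, 8.79% and 15.7%. Of the 1349 sites, 455 (33.7%) were in at least 2 SMAD3 Dox+ lists and 531 (39.4%) in at least 2 OCT4 lists.

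**Figure D2:**
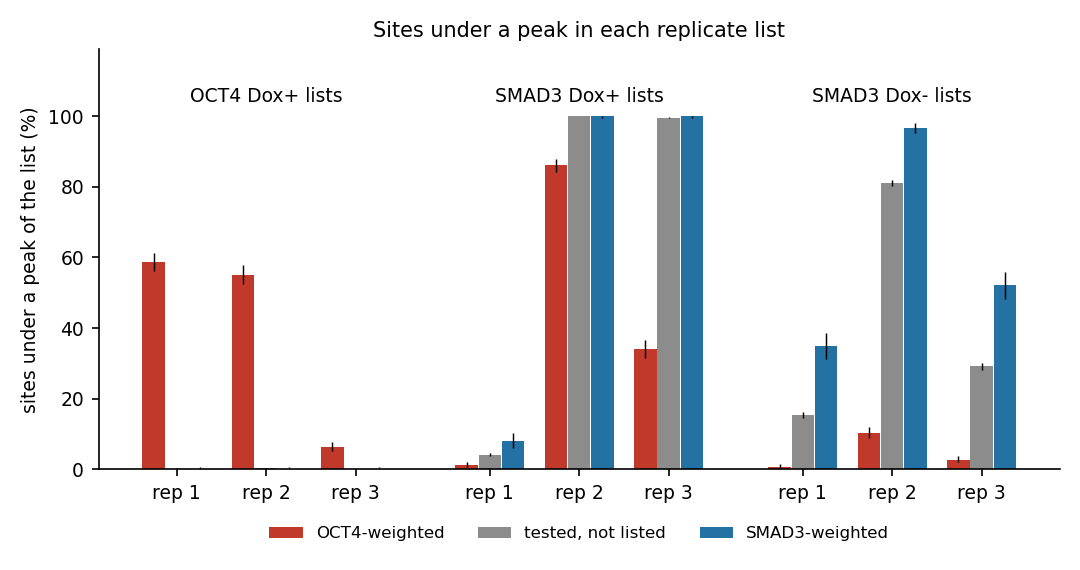
Share of sites (y axis, percent) that lie under a peak of each of the 9 replicate lists (x axis), for OCT4-weighted, tested but not listed, and SMAD3-weighted regions; error bars are 95% Clopper-Pearson intervals and cover counting error only. OCT4-weighted sites are at 0.741%, 10.3% and 2.74% in the 3 Dox- lists, against 35.0%, 96.8% and 52.1% of SMAD3-weighted sites.

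The groups differed in where they lay. A promoter site was defined by a center within 1000 bp of a transcript start. Of the OCT4-weighted sites 194 (14.4%, 95% Clopper-Pearson interval 12.6 to 16.4) were promoter sites, 573 (42.5%) lay in introns and 544 (40.3%) between genes. Of the SMAD3-weighted sites 577 (87.7%, 84.9 to 90.1) were promoter sites, 19 (2.89%) lay in introns and 44 (6.69%) between genes. The OCT4-weighted share depended on the support for the sites, and was 4.9% for those in at least 2 OCT4 lists and 5.25% for those with a difference of at least 2. Of the 194 promoter sites, 131 were among the 311 sites in no OCT4 list. The regions tested and not listed resembled the SMAD3-weighted sites in this, with 6410 (81.2%) at promoters. Median distance to a transcript start was 12786 bp for OCT4-weighted and 134 bp for SMAD3-weighted sites. More than 50 kb from any start lay 238 OCT4-weighted sites (17.6%) and 0 SMAD3-weighted sites.

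The same held where each replicate list was taken as a whole. The split of the sites did not enter this comparison. The regions were joined from the same lists, however, so the comparison is not separate support. Promoter peaks made up 4.43%, 6.64% and 8.82% of the OCT4 lists and 84.8%, 47.8% and 72.3% of the SMAD3 Dox+ lists. The groups did not overlap, with means of 6.63% ± 2.2 and 68.3% ± 18.8 (SD, n = 3 lists each; exact two-sided permutation test p = 0.1, Benjamini-Hochberg adjusted p = 0.114 over 8 comparisons). With 3 lists against 3, exact p = 0.1 is the smallest value this test can give, so none of the 8 comparisons could reach 0.05.

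**Figure D3:**
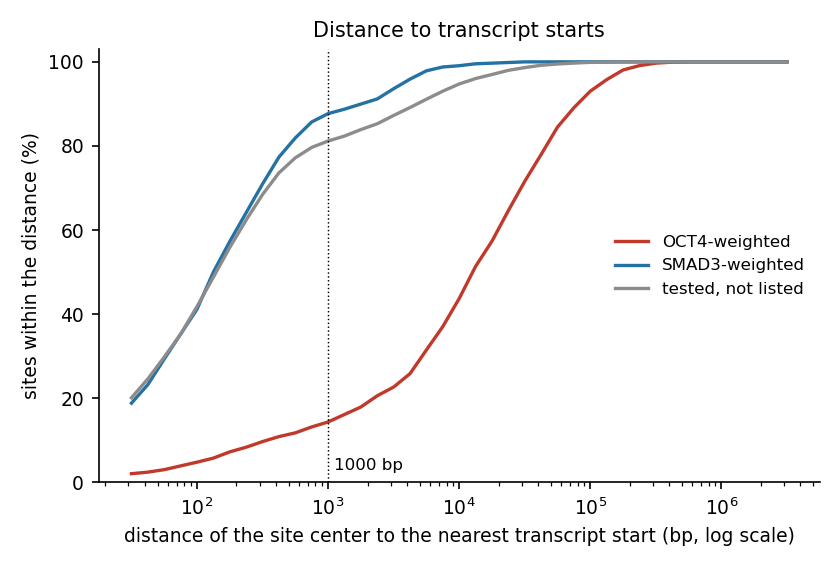
Cumulative share of sites (y axis, percent) whose center lies within a given distance of the nearest transcript start (x axis, bp, log scale) for the 3 kinds of region; the dotted line marks 1000 bp. At that distance the OCT4-weighted curve stands at 14.4%, and the SMAD3-weighted and not listed curves at 87.7% and 81.2%; of the 194 OCT4-weighted sites within it, 131 were in no OCT4 list.

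Width and base composition differed as well. OCT4-weighted sites had a median width of 498 bp and a median GC content of 42.3% in the central window, 100 bp on each side of the center, and SMAD3-weighted sites had medians of 1233 bp and 64.2%. Away from promoters the gap in GC content was smaller, with medians of 41.3% and 49.3%. Across whole lists the median GC content was 39.3%, 39.8% and 42.3% for OCT4 and 67.2%, 53.7% and 62.2% for SMAD3 Dox+, again without overlap between the groups (exact permutation p = 0.1, adjusted p = 0.114).

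The Dox- SMAD3 lists took no part in the split. They show where SMAD3 had peaks in cells in which the cassette was not induced. OCT4-weighted sites lay under a Dox- SMAD3 peak in 0.741%, 10.3% and 2.74% of cases in the 3 lists, and SMAD3-weighted sites in 35.0%, 96.8% and 52.1%. The regions not listed lay between, at 15.4%, 81.2% and 29.1%. SMAD3-weighted sites were higher in 3 of 3 lists, with a mean difference of 56.7 percentage points ± 26.9 (SD, n = 3 lists; exact two-sided sign-flip permutation p = 0.25, the smallest this design allows). In all, 1202 OCT4-weighted sites (89.1%) were in no Dox- list, against 21 SMAD3-weighted sites (3.19%) and 1416 regions not listed (17.9%). Only 2 OCT4-weighted sites were in all 3 Dox- lists, and 167 SMAD3-weighted sites (25.4%) were.

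The way in which sites entered bears on this difference, because the SMAD3-weighted sites all passed through at least 2 SMAD3 Dox+ lists, while most OCT4-weighted sites had an OCT4 list behind them. Among sites in at least 2 SMAD3 Dox+ lists, an alternative chosen after seeing the data, 2.2%, 27.7% and 7.25% of 455 OCT4-weighted sites lay under a Dox- peak. The SMAD3-weighted sites, all of which meet this condition, were higher by 48.9 points on average.

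The difference was smaller within each class of location. At promoters 4.12%, 47.9% and 14.4% of OCT4-weighted sites lay under a Dox- peak, against 36.2%, 98.1% and 54.4% of SMAD3-weighted sites, and the mean difference was 40.7 points. Away from promoters the shares were 0.173%, 3.98% and 0.779% against 25.9%, 87.7% and 35.8%, and the mean difference was 48.1 points. The 311 OCT4-weighted sites found in SMAD3 Dox+ lists only had higher Dox- shares, at 2.89%, 32.8% and 9.0%, than the 864 found in lists of both antibodies, at 0.116%, 4.28% and 1.04%. None of the 174 sites in OCT4 lists only lay under a Dox- peak, which allows up to 1.72%. The size of the difference depended on peak strength, and it was 8.94 points where Dox- peaks with a −log10 q of at least 2 alone were used, and 20.0 points with each Dox- list cut to its 1656 strongest peaks.

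Pooled coverage was available at the merged OCT4 regions. Coverage is that of the pooled ChIP minus pooled input, each scaled to a genome mean of 1. Over the central 200 bp of 1010 merged OCT4 regions on OCT4-weighted sites, mean coverage was 26.3 for OCT4, 10.2 for SMAD3 in Dox+ cells and 0.371 for SMAD3 in Dox- cells. SMAD3 coverage in Dox+ cells was above 0 at 99.3% of these regions, and in Dox- cells at 52.7%. The other 1012 merged OCT4 regions, which lay on no listed site, had lower values of 20.1, 6.06 and 0.0885. No merged OCT4 region lay on a SMAD3-weighted site. The pooled files hold no replicate values, so these numbers carry no error.

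**Figure D4:**
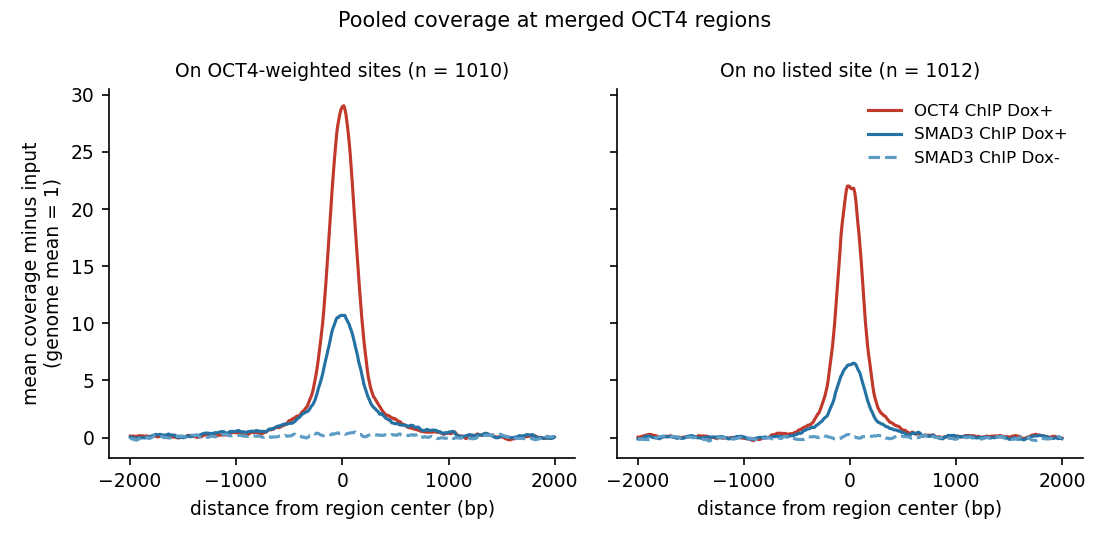
Mean coverage minus input (y axis, genome mean 1) by distance from the center of merged OCT4 regions (x axis, bp), for 1010 regions on OCT4-weighted sites (left) and 1012 on no listed site (right), each line 1 pooled ChIP. OCT4 and Dox+ SMAD3 both peak at the center, and the Dox- SMAD3 line stays near 0.

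Motifs were counted in the same central window of each site, on both strands. The octamer ATGCAAAT was found at 57 OCT4-weighted sites (4.23%, 3.22 to 5.44), at 1 SMAD3-weighted site (0.152%, 0.00385 to 0.844) and at 0.469% of regions not listed. The joint OCT-SOX element was found at 29 OCT4-weighted sites (2.15%), at 0 SMAD3-weighted sites, which allows up to 0.456%, and at 1 of the 7896 regions not listed. Windows 500 to 700 bp from the center of OCT4-weighted sites held the octamer in 1.74% and the joint element in 0.111%. Both motifs were thus more frequent at the centers of OCT4-weighted sites than beside them, while most OCT4-weighted sites had no exact match to either. Away from promoters the octamer shares were 4.5% and 1.23%, the latter being 1 of 81 sites.

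All 29 sites with the joint element were in at least 1 OCT4 list and 22 were in at least 2, while 8 were in no SMAD3 Dox+ list. Their median concentrations were 5.11 for OCT4 and 1.36 for SMAD3, and the difference ran from 2.81 to 5.31. Of the 29, 28 were in no Dox- SMAD3 list. The exception was Rif1, with a fold of 1.84 in Dox- replicate 2.

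The other motifs separated the groups less. The KLF motif (GGGCGTGG or GGGTGTGG) was found at 6.45% of OCT4-weighted and 5.32% of SMAD3-weighted sites, with overlapping intervals of 5.2 to 7.89 and 3.73 to 7.32, and at 6.74% of regions not listed. The AP-1 motif (TGACTCA or TGAGTCA) was found at 6.52% and 2.74%, and at 2.74% of regions not listed. Away from promoters the AP-1 shares were 7.19% (5.76 to 8.83) and 3.70% (0.770 to 10.4), and 6.80% in distal regions not listed. The SMAD half-site CAGAC was found at 31.7% and 35.4%, at 34.2% of regions not listed and at 34.4% of the windows beside OCT4-weighted sites. Its share at OCT4-weighted sites was no higher than in these neighbouring windows. The KLF and AP-1 motifs were held by 2.52% and 3.11% of these windows, below their shares at the centers of OCT4-weighted sites. The SMAD palindrome GTCTAGAC was found at 1 OCT4-weighted and 2 SMAD3-weighted sites. The octamer and the joint element can overlap by the letters they share, and a match is a description of the sequence only.

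Across whole lists the octamer was held by 6.73%, 7.26% and 13.7% of OCT4 peaks and by 0.952%, 0.959% and 0.627% of SMAD3 Dox+ peaks. The groups did not overlap (9.24% ± 3.89 and 0.846% ± 0.190, SD, n = 3 lists each; exact permutation p = 0.1, adjusted p = 0.114). The joint element was held by 3.58%, 4.13% and 9.80% of OCT4 peaks and by 0%, 0.163% and 0.0193% of SMAD3 peaks, with 0 of 420 in replicate 1 allowing up to 0.714% (exact permutation p = 0.1, adjusted p = 0.114). The short OCT4 replicate 3 list had the highest share of both, and without it the differences fell from 8.39 to 6.15 points for the octamer and from 5.78 to 3.79 points for the joint element. There 14 of 102 peaks held the octamer (95% interval 7.71 to 22%).

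The KLF motif and the SMAD half-site went the other way across lists. The KLF motif was held by 5.00% ± 0.951 of OCT4 peaks and 7.51% ± 1.74 of SMAD3 peaks, CAGAC by 27.5% ± 2.58 and 34.3% ± 3.16, and the palindrome by 0.0299% ± 0.0518 and 0.312% ± 0.145 (SD, n = 3 lists each; exact permutation p = 0.1 and adjusted p = 0.114 for each). The palindrome values rest on 1 OCT4 peak in all. The AP-1 shares of 6.64%, 3.86% and 8.82% for OCT4 and 3.10%, 6.38% and 3.26% for SMAD3 overlapped (exact permutation p = 0.2, adjusted p = 0.2). Among peaks beyond 1000 bp of a start the AP-1 difference had the opposite sign, at -2.21 points.

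**Figure D5:**
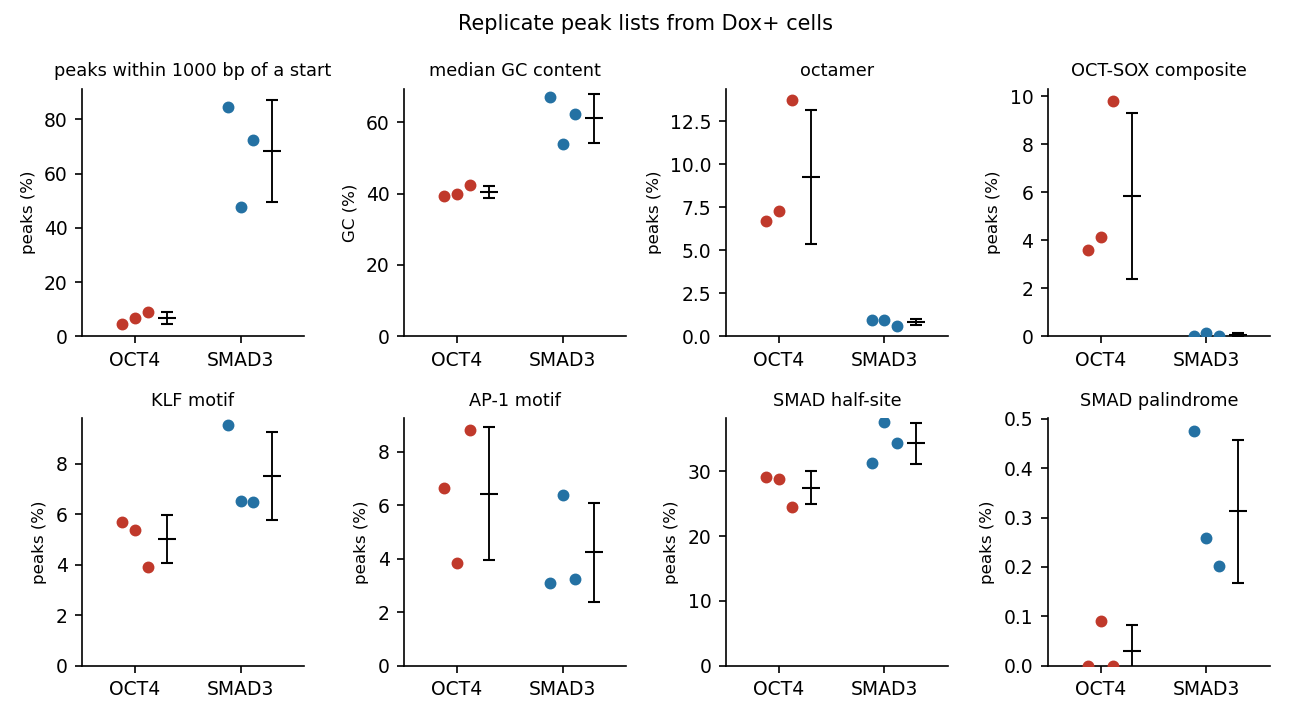
Each point is 1 replicate peak list from Dox+ cells, OCT4 in red and SMAD3 in blue, with the mean and SD of the 3 lists beside them; y axes give the share of peaks with a feature or the median GC content, in percent. The OCT4 and SMAD3 points do not overlap in any panel except the AP-1 motif.

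The OCT4-weighted sites were not uniform. The 174 sites in OCT4 lists only were narrow, with a median width of 259.5 bp, and had a median GC content of 38.8% and a median SMAD3 concentration of 0.64. They held the octamer in 9.20% (5.35 to 14.5) and the joint element in 4.60% (2.01 to 8.86) of cases. The 864 sites in lists of both antibodies were wider, at 479 bp, with a median OCT4 concentration of 4.92, close to the 4.85 of the former, and a SMAD3 concentration of 1.91. They held the octamer in 3.94% (2.74 to 5.46) and the joint element in 2.43% (1.51 to 3.69). In these wider sites the motif may lie outside the central window, and at the OCT4 summit the octamer shares were 9.25% and 6.35%, with overlapping intervals of 5.38 to 14.6 and 4.75 to 8.29. The AP-1 motif was at 2.30% (0.630 to 5.78) and 6.83% (5.24 to 8.72) of the sites. The 311 sites in SMAD3 lists only were 922 bp wide at the median, were promoter sites in 42.1% of cases, against 5.75% and 6.13%, and held 0 joint elements, which allows up to 0.965%. Their median difference of 1.54 was the smallest of the 3 subsets. By the entry rule the 174 sites were all in at least 2 OCT4 lists. Of the 864, 420 were in 1 OCT4 list and 1 SMAD3 Dox+ list. The subsets thus differed in OCT4 support, and motif shares at equal support were not compared. These subsets were formed from the same libraries as the concentrations.

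A count of all words of 7 bases in the same windows, both strands pooled, was made as a description. Away from promoters 1155 OCT4-weighted sites were compared with 1486 regions not listed. The 3 words with the largest difference were A-rich and hold no OCT or SOX element, namely AAAGAAA (22.1% and 8.75%), AAGAAAA (18.8% and 7.87%) and AAAAGAA (17.3% and 7.13%). Among the 8 words with the largest difference, those that hold parts of OCT or SOX elements were then picked out, with ATAACAA at 11.6% and 1.75%, ATGCAAA at 11.7% and 2.49% and ATATGCA at 10.5% and 1.48%. The 174 sites in OCT4 lists only were compared in the same way with the 864 in lists of both antibodies. There the 4 words with the largest difference were ATATGCA (22.4% and 9.49%), ATGACAA (19% and 7.52%), TGCATAA (17.2% and 6.6%) and ATGCAAA (21.8% and 11.2%). ATATGCA can be read in the windows printed for Dpyd, Rab3ip and Ube3a. The words were chosen after their values were seen and were not tested. Comparison of the 174 with the 864 sites was not at equal OCT4 support. All of the 174 were in at least 2 OCT4 lists, and many of the 864 in only 1. Median GC content differed between the groups in both counts, and its part in the result was not tested.

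Single sites were taken from those in at least 2 lists of their antibody. The largest difference in the OCT4 direction was in an intron of Dpyd, which encodes an enzyme of pyrimidine breakdown. Its mean concentrations were 5.79 for OCT4 and -0.13 for SMAD3, and its fold over input was 7.51, 7.27 and 7.2 in OCT4 replicates 1, 2 and 3. It had no SMAD3 peak in any Dox+ or Dox- list. Introns of Rab3ip, an activator of Rab GTPases, and Lims1, a focal adhesion adaptor, and a retained-intron transcript of Ube3a, which encodes a ubiquitin ligase, followed with differences of 5.70, 5.64 and 5.62. Of the 12 such sites with the largest difference, Zdhhc14 alone lay under a SMAD3 Dox+ peak, in replicate 2 with a fold of 3.59, beside OCT4 folds of 7.82 and 14.6 in replicates 1 and 2. The intron of Stag1, a cohesin subunit, had OCT4 folds of 12 and 9.21 in replicates 1 and 3 and no peak in replicate 2. None of these 12 sites lay under a Dox- SMAD3 peak. Their distances to the nearest coding start ran from 8577 bp at Ube3a to 1508759 bp at Dsel.

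In the SMAD3 direction the largest difference, -4.39, was at a region of 4488 bp in the histone cluster, 138 bp from the start of Hist1h3a, a histone H3 gene. SMAD3 fold over input there was 2.43 and 7.84 in Dox+ replicates 2 and 3, and 2.11 in Dox- replicate 2. Next came the start of Glul, encoding glutamine synthetase, with a difference of -3.39, SMAD3 folds of 2.78, 2.60 and 2.79 in the Dox+ lists and 3.31, 2.13 and 2.39 in the Dox- lists. Thus at Glul the peak was present with and without dox in all 6 lists. Arl6ip1, an endoplasmic reticulum protein gene, Taf13, a TFIID subunit, Errfi1, a feedback inhibitor of EGF receptor, and Fam53c also had peaks in all 3 Dox+ lists. At Gadd45b, a stress-response gene known to respond to TGF-β, the difference was -3.20 and the Dox- folds were 3.33, 2.14 and 2.30. All 12 sites had a peak in at least 1 Dox- list and 0 in any OCT4 list. OCT4 concentration was at its lowest value at 10 of the 12, so those differences are bounded. Rpl6, a ribosomal protein gene 6543 bp from its site, was also in the deposited Dox+ against Dox- SMAD3 table, which shares the Dox+ samples, with mean concentrations of 5.01 and 3.57. The Dox+ SMAD3 value of that site was 4.15 in the OCT4 against SMAD3 table, so values of the 2 tables are not on equal terms.

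A gene was counted with a site that lay inside it or no more than 10 kb away. Of the 21938 protein-coding genes, 914 (4.17%) had an OCT4-weighted site, 1129 (5.15%) a SMAD3-weighted site and 51 had both. Among 38 genes of the pluripotency network, 5 (13.2%) had an OCT4-weighted site, namely Pou5f1, Rif1, Tet2, Lefty2 and Gdf3, and 3 (7.89%) had a SMAD3-weighted site. At Pou5f1 the site lay 2034 bp from the start, with mean concentrations of 5.62 for OCT4 and 2.01 for SMAD3, and folds of 11.1 and 9.59 in OCT4 replicates 1 and 2 and 1.77 in SMAD3 Dox+ replicate 2. At Rif1 the site lay 616 bp from the start, with OCT4 folds of 12.8, 16.9 and 15.6 in all 3 replicates and SMAD3 folds of 1.96 and 2.23 in Dox+ replicates 2 and 3. Both sites held the joint OCT-SOX element in the sequences printed above. At Gdf3, a TGF-β family ligand gene, and Lefty2, an inhibitor of Nodal signalling, the differences were 2.23 and 2.27. At Tet2, a 5-methylcytosine dioxygenase gene, the site was intronic, with a difference of 2.48. The sites at Gdf3 and Tet2 were each in 1 OCT4 list. In the Dox+ against Dox- SMAD3 table, which shares the Dox+ SMAD3 samples, mean SMAD3 concentrations were 3.70 and 1.01 at Gdf3, 3.32 and 0.90 at Tet2 and 4.08 and 1.97 at Rif1. In the OCT4 against SMAD3 table the Dox+ SMAD3 values were 2.85, 2.48 and 3.23, so values of the 2 tables are not on equal terms. The sites at Pou5f1 and Lefty2 were not listed in the Dox+ against Dox- table. The site at Lefty2 had a Dox- SMAD3 peak in replicate 2 with a fold of 5.78, above its folds of 2.77 and 1.96 in Dox+ replicates 2 and 3.

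The SMAD3-weighted sites near pluripotency genes were at the start of Tbx3, a T-box factor gene, and near Lefty1 and Trim28, where the nearest coding start was that of Tmem63a and Chmp2a. The difference was -1.93 at Tbx3, where SMAD3 folds were 2.94 and 5.49 in Dox+ replicates 2 and 3 and 6.38 in Dox- replicate 2.

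Among 35 genes of TGF-β targets and feedback found in the annotation, 7 (20.0%) had a SMAD3-weighted site and 3 (8.57%) an OCT4-weighted site. Over all protein-coding genes these shares were 5.15% and 4.17%. The genes with a SMAD3-weighted site were Id2, Acvr2a, Skil, Cdkn1a, Cdkn2b, Bhlhe40 and Smad5. The list held 37 genes, so the shares are of those found by name. Ccn1 and Ccn2, looked up apart from the list, had 0 sites of either kind and 2 regions tested and not listed each. Skil encodes SnoN, a repressor of SMAD activity, and its site 190 bp from the start had SMAD3 concentration 5.6 and OCT4 concentration 3.58, with peaks in all 6 SMAD3 lists at folds between 2.16 and 3.18. Id2, an inhibitor of basic helix-loop-helix factors, had a site of each kind. The SMAD3-weighted site 173 bp from its start differed by -2.64, and an OCT4-weighted site 3136 bp from it differed by 1.36, although the latter was in no OCT4 list. The Smad3 gene had an intronic OCT4-weighted site with a difference of 2.96, and Tgfbr3, a co-receptor, one with 2.52. Each was in 1 OCT4 list. The Smad3 site was only in the short list of replicate 3, below its median fold of 7.24, and under no merged OCT4 peak. Both sites had a SMAD3 peak in Dox- replicate 3, with folds of 2.35 at Smad3 and 1.64 at Tgfbr3. Dox+ SMAD3 folds were 2.16 and 1.92 in replicates 2 and 3 at Smad3, and 1.54 in replicate 2 at Tgfbr3.

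The shares below stand beside 5.15% of all protein-coding genes with a SMAD3-weighted site and 4.17% with an OCT4-weighted site. Cell cycle and senescence genes had 6 of 23 (26.1%) with a SMAD3-weighted site (Gadd45b, Cdk4, Cdkn1a, Cdk2, Cdkn2b and Cdkn2c) and 1 (4.35%) with an OCT4-weighted site, Rb1, the retinoblastoma gene, which had 2 of them. Of 13 AP-1 genes 3 (23.1%) had a SMAD3-weighted site (Batf, Fosl1 and Jund) and 0 an OCT4-weighted site. Chromatin regulators had 5 of 32 (15.6%) with a SMAD3-weighted site (Kdm5b, Suz12, Dpy30, Kmt2d and Kdm6b) and 2 (6.25%) with an OCT4-weighted site (Arid1a and Kmt2c). Mesenchymal and fibroblast genes had 4 of 35 (11.4%) with an OCT4-weighted site (Fbn1, Cdh11, Nfib and Nfix) and 2 (5.71%) with a SMAD3-weighted site (Sparc and Fbn1). Fbn1, the fibrillin gene, had a SMAD3-weighted site with peaks in all 3 Dox- lists and an intronic OCT4-weighted site with none. YAP and TEAD genes had 2 of 15 (13.3%) of each kind, Frmd6 and Tead1 on one side and Axl and Wwtr1 on the other. This list held 17 genes, of which 15 were found by name. Epithelial genes had 1 of 30 (3.33%) of each kind, Pkp3 and Cldn6. Several of these sites lay nearest the coding start of another gene. They were those at Fosl1 (Ccdc85b, 177 bp away), Cdk4 (Tspan31), Cdkn2c (Faf1, 92 bp), Kmt2d (Prkag1, 243 bp), Axl (Hnrnpul1), Pkp3 (Sigirr, 272 bp) and Cldn6 (Tnfrsf12a). The OCT4-weighted sites at Fbn1 and Nfix and 1 of the 2 at Rb1 were also nearest another gene's start, though inside the named gene. Of the OCT4-weighted sites named in this paragraph, those at Tead1 and Nfix were in no OCT4 list. Those at Rb1, Arid1a, Kmt2c, Fbn1, Nfib and Pkp3 were in 1 each, and those at Cdh11 and Frmd6 in 2. The counts were small and the lists were not tested against other genes. Genes with a region tested and not listed were not counted for these lists. The genes differ in length, and long genes can hold more sites.

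The genes with the most OCT4-weighted sites were long ones. Zfhx3, of 1018987 bp, had 5, and Dlg2, Negr1, Shroom3 and Zbtb20 had 4 each. SMAD3-weighted sites were rarely repeated. Gm20388, of 4434882 bp, had the most, 4. Wdr46 had 3. Hist1h1d, Hist1h3f and Hist1h4f also had 3 within 10 kb, which these neighbouring histone genes may share. Of 67 protein-coding histone genes, counted after the Hist1h3a site had been seen, 23 (34.3%) had 1 of 8 SMAD3-weighted sites within 10 kb, 3 (4.48%) an OCT4-weighted site and 54 (80.6%) a region tested and not listed. The genes lie in clusters and resemble each other in sequence, so the assignment to single genes is uncertain and the genes are not independent.

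At the smallest differences that were still listed, the sites near Mcph1 and Hspb7 differed by 1.01 and those near Tob1 and Ern1 by -1.06 and -1.07. Both OCT4-weighted ones were in SMAD3 lists and in no OCT4 list. Sites of the opposite kind lay within 10 kb of one another in few places, for 11 sites of each kind. The share expected for regions of this kind was not tested.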

How the data were processed

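ChIP-seq was analysed from 9 samples, 3 each of OCT4 Dox+, SMAD3 Dox+ and SMAD3 Dox-, with 2 Dox+ and 2 Dox- inputs used by the authors as controls. Per the labels and the study's methods, the authors trimmed reads (Trimmomatic 0.36), aligned them to mm10 (Bowtie2, listed as 2.28), removed duplicates (Picard 2.3.0), low-quality alignments and blacklisted regions, and called peaks for each replicate and for merged replicates with MACS2 2.1.0, OCT4 as narrow and SMAD3 as broad peaks. Their q cutoff was stricter for OCT4 peaks than for SMAD3 peaks. The deposited peak lists give the fold enrichment over pooled input and the −log10 q of each peak, averaged over the region for broad peaks. The deposited concentrations are the log2 of the authors' mean normalised read count of a group at a site (DiffBind 1.16.3). The coverage score deposited by the authors is pooled ChIP minus pooled input, each scaled to a genome mean of 1, in 10 bp bins (deepTools 2.2.3). The columns of the authors' own comparisons (overall concentration, log2 fold change, p-value and FDR) and the gapped peak lists were not used. Depth per library is not in these files, and none was inferred.

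From these, repeated entries with the same coordinates were counted once and mitochondrial regions were left out of the list comparisons. Regions of the 6 Dox+ replicate lists were joined, and those in at least 2 lists were taken as tested. Overlap meant at least 1 shared bp. Starts, exons and introns came from GENCODE mouse release 21 (GRCm38) and sequence from RefSeq GRCm38. Each list feature was compared as 1 value per replicate list, with an exact two-sided permutation test and Benjamini-Hochberg adjustment. Dox- shares were compared by an exact sign-flip test over lists. Intervals are 95% Clopper-Pearson, the limit for a count of 0 is 3 counts of the total, and both cover counting error only. Named sites were the 12 of each kind with the largest difference that were in at least 2 lists of their antibody, and genes with a site from 8 gene lists; the sites at the smallest differences and the histone genes were added after values were seen. The members and lists were chosen with earlier results of these data known. The code was tested on simulated data. Python 3.11.15, numpy 2.4.6, scipy 1.17.1, pandas 2.3.3, pysam 0.24.0 and matplotlib 3.10.9 were used. Alternatives were the omission of each replicate, the replicate block, peak strength, list length, window, promoter distance, distal peaks and the size of the difference.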

Additional observations from a re-analysis of the deposited data

Results flagged for a closer look

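The peak list of OCT4 replicate 1 held 13 entries on the mitochondrial chromosome, in 7 distinct regions, and the other replicate lists held none. These peaks lay outside the sites compared and were left out of the list comparisons. Their origin was not tested.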

How the results depend on the processing

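Across 9 tested results and 116 alternatives, 113 kept the direction and side of the threshold, which this design could not pass. The exceptions were the AP-1 difference between lists (2.2 points), which was -0.259 with peaks of −log10 q of at least 2 and -2.21 beyond 1000 bp of a start, and the palindrome difference, which was 0 with the strongest peaks only. The cause was not tested. The promoter share of OCT4-weighted sites, 14.4%, was 5.25% with a difference of at least 2, 4.9% with at least 2 OCT4 lists and 29.3% at 5000 bp, where that of SMAD3-weighted sites was 96.8%. Leaving out each replicate gave -71.9 to -53.4 points for promoters, 6.15 to 9.65 for the octamer, 3.79 to 6.90 for the joint element, -3.03 to -1.51 for KLF, 1.01 to 3.49 for AP-1, -8.42 to -5.26 for CAGAC, -0.337 to -0.201 for the palindrome, -24.2 to -17.5 for GC content and 41.8 to 67.9 for the Dox- share. The Dox- difference was 40.7 at promoters, 55.8 in sites 400 to 1500 bp wide and 48.9 in sites of at least 2 SMAD3 Dox+ lists, all chosen after seeing the data. Same-numbered OCT4 and SMAD3 lists had correlated deviations of 0.141, -0.0656 and 0.0440, so the numbers were not taken as pairs. With a replicate block the differences were -61.7, 8.39, 5.78, -2.51, 2.2, -6.85, -0.282 and -20.6 (promoter, octamer, joint element, KLF, AP-1, CAGAC, palindrome, GC), with exact p = 0.25, its smallest value, except 0.5 for AP-1. Unequal list lengths and concentrations without replicate values limit every result.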
